A study of Mus musculus with 8 samples.

Results

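Receptors for bradykinin and extracellular nucleotides, and the calcium release channels they act through, were examined in 2 populations of mouse liver duct cells. The 10 genes were Bdkrb1 and Bdkrb2, P2ry1, P2ry2, P2ry6 and P2ry14, P2rx4, and Itpr1, Itpr2 and Itpr3, out of 20377 gene symbols measured. They were listed by symbol, and all 10 were present in the tables of all 8 libraries, on 12 transcript rows. For the symbols with several rows, P2ry14 and Itpr2, the row with the most reads summed over the 8 libraries was kept, so these rows were chosen by their summed read counts, which are given only as a description. The list itself was drawn up with earlier results of ST14high against ST14low known, so the tests below describe these libraries and are no independent evidence for the genes picked. Nonparenchymal cells of wild type C57BL/6 mouse livers were sorted for binding of the duct antibody MIC1-1C3, absence of surface CD26 and absence of blood cell antigens, and then split by surface ST14 (matriptase, a membrane serine protease). The ST14high and the ST14low population were sequenced as 4 libraries apiece, from RNA of cells sorted straight into lysis reagent with no treatment named. The animals are described only as adult, and the labels do not say whether libraries came from separate animals, so every p-value measures the spread between these libraries, which may be technical. In bulk RNA of sorted cells, fewer cells of a type and less RNA per cell cannot be told apart.

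The bile duct epithelium modifies bile under the control of signals that raise cytosolic calcium. Bradykinin acts on the receptors B1 and B2 (Bdkrb1 and Bdkrb2), and nucleotides such as ATP, UTP and UDP, released into bile or tissue fluid, act on P2Y receptors, which are coupled to G proteins, and on P2X receptors, which are ion channels opened by ATP. The bradykinin receptors and several P2Y receptors activate phospholipase C through Gq proteins, and the inositol trisphosphate (IP3) so formed opens IP3 receptors (Itpr1, Itpr2 and Itpr3), which release calcium from the endoplasmic reticulum. In duct cells the type encoded by Itpr3 is known to lie near the apical membrane, where calcium signals promote chloride and bicarbonate secretion.

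The library totals, with 1 row kept per gene, lay between 17418202 and 42769988 counts in ST14high and between 6398307 and 31011678 counts in ST14low. Levels are given as CPM, read counts scaled to library depth, on library sizes scaled by TMM factors. Duct markers were present in both populations, with summed levels of 16042 to 25803 CPM in ST14high and 19367 to 27789 CPM in ST14low over 12 genes. Most of that sum was Spp1 (osteopontin), and the other 11 genes summed to 4802 to 7456 CPM in ST14high and 4307 to 8136 CPM in ST14low. ST14high replicate 1 stood apart in markers of other cells. Its 11 pancreatic acinar markers summed to 9349 CPM, against 1331 CPM in ST14high replicate 2 and at most 101 CPM in each of the other 6 libraries, and its markers of stellate cells, fibroblasts and muscle (3277 CPM), endothelium (1386 CPM) and mesothelium (1021 CPM) were also the highest of the 8 libraries. Members whose log2 fold change rests on that library are given with and without it. For genes beside the members no log2 fold change without it is given.

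The bradykinin receptors were the members that separated the populations. Bdkrb2 and Bdkrb1 were both lower in every ST14high library than in any ST14low library, with mean levels of 0.501 and 0.384 times those of ST14low. The remaining 8 members overlapped between the populations, and P2ry2, P2rx4, Itpr1 and Itpr2 had mean levels within 0.903 to 1.05 times those of ST14low. Over all 13749 genes tested, 2.33% lay lower in ST14high without overlap and 4.09% lay higher without overlap. In edgeR's quasi-likelihood test with Benjamini-Hochberg adjustment over all genes, 0 of the 9 members that passed the low-count filter passed an adjusted p of 0.05, and 0% of all genes did, with 0.192 as the smallest adjusted p. Before adjustment, 3 members had a p under 0.05, namely Bdkrb2, Bdkrb1 and P2ry1, all lower in ST14high, where 9.56% of all genes passed and 2.68% passed in that direction. Limma's voom test called 0 members. DESeq2's Wald test called 1 of the 8 members to which it gave an adjusted p, Bdkrb2, where it called 1.72% of all genes and called 0.103% lower in ST14high.

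**Figure D1:**
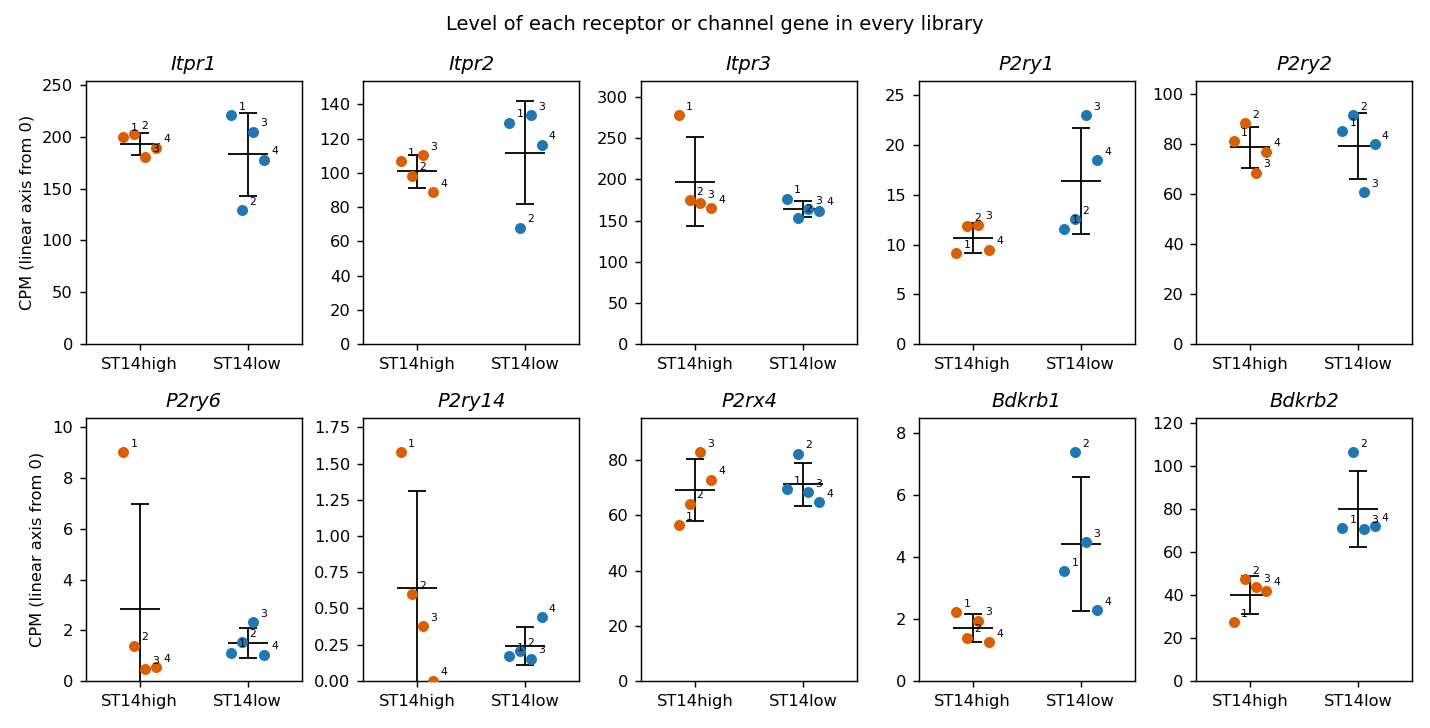
Level of each gene in CPM (linear axis from 0) in the 4 ST14high libraries (orange) and the 4 ST14low libraries (blue), numbered by replicate, with mean and SD (black; SD bars are drawn no lower than 0). For Bdkrb1 and Bdkrb2 all ST14high points lie below all ST14low points, and ST14high replicate 1 lies far above the rest for Itpr3 and P2ry6.

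Bdkrb2 encodes the B2 receptor, the constitutive receptor for bradykinin itself. The gene spans positions 106801381 to 106831281 of chromosome 12 (plus strand, mouse build mm9) and was counted with 11385 reads over the 8 libraries. Bdkrb2 was at 27.3, 47.4, 43.5 and 42.0 CPM in ST14high replicates 1 to 4, against 71.0, 106, 70.8 and 71.9 CPM in ST14low replicates 1 to 4. The populations were separated by a gap: the highest ST14high library was at 47.4 CPM and the lowest ST14low library at 70.8 CPM. In each population 3 libraries lay close together, with ST14high replicate 1 below its group and ST14low replicate 2 above its group. The means were 40.1 ± 8.79 CPM in ST14high, against 80.0 ± 17.6 CPM in ST14low (SD, n = 4 each). For Bdkrb2 the log2 fold change of ST14high over ST14low was -0.997 (SE 0.21, 95% interval from -1.46 to -0.53) with an adjusted p of 0.192 in edgeR, and the exact two-sided permutation p was 0.0286, the smallest that 4 against 4 libraries can give. In DESeq2 the log2 fold change was -1.01 (SE 0.23, adjusted p = 0.00151), and among the 14 genes that DESeq2 called lower in ST14high Bdkrb2 had the smallest p. DESeq2 called it also in each of 8 fits that left out a library (log2 fold change from -1.10 to -0.83, adjusted p from 0.00178 to 0.0111). Over all fits made, the adjusted p of Bdkrb2 lay between 2.11e-05 and 0.596.

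Bdkrb1 encodes the B1 receptor, which binds kinins lacking the terminal arginine and is known to be induced by inflammation and injury. It lies 11019 bases beyond the end of Bdkrb2 on the same strand, at positions 106842300 to 106843638 of chromosome 12 (mm9), and was counted with 523 reads. Bdkrb1 was at 2.21, 1.39, 1.94 and 1.25 CPM in ST14high replicates 1 to 4, against 3.54, 7.38, 4.47 and 2.28 CPM in ST14low replicates 1 to 4. The gap between the populations was narrow, from 2.21 CPM in ST14high replicate 1 to 2.28 CPM in ST14low replicate 4, and ST14low replicate 2 was again the highest library. These levels rested on 35, 35, 82 and 42 reads in ST14high and 83, 144, 29 and 73 reads in ST14low. The log2 fold change was -1.38 (SE 0.47, 95% interval from -2.44 to -0.33), with an adjusted p of 0.399 in edgeR and 0.168 in DESeq2 and an exact permutation p of 0.0286.

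Per transcript length, in the RPKM values that the authors deposited, Bdkrb2 exceeded Bdkrb1 in every library, by 10.3 to 28.1 times in ST14high and by 11.9 to 26.03 times in ST14low. The ratio of the B2 to the B1 transcript overlapped between the populations while both transcripts were lower in ST14high. Set against P2ry2, a nucleotide receptor with the same Gq pathway, Bdkrb2 was at 0.619 to 1.17 times its RPKM in ST14high and at 1.53 to 2.14 times its RPKM in ST14low.

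Marker sums of other cells also differed between libraries, and their part in the Bdkrb2 level was not tested. Stellate cells, fibroblasts and muscle had sums over 14 markers of 729 to 3277 CPM in ST14high and 320 to 657 CPM in ST14low. The 6 mesothelial markers summed to 298 to 1021 CPM in ST14high and 156 to 269 CPM in ST14low. Without Rgs5 the sums for stellate cells, fibroblasts and muscle were 478.5 to 3162 CPM in ST14high and 163 to 365 CPM in ST14low. Without Gpm6a the mesothelial sums were 119 to 778 CPM in ST14high and 18.5 to 54.8 CPM in ST14low. Endothelial markers summed to 1386, 269, 21.1 and 385 CPM in ST14high replicates 1 to 4 and to 330, 940, 1265 and 301 CPM in ST14low replicates 1 to 4. Of 12 macrophage markers 11 had a log2 fold change below 0, with a median of -1.86 over the list, and 0 passed edgeR's adjusted threshold. The macrophage markers summed to 382, 282, 243 and 349 CPM in ST14high replicates 1 to 4 and to 454, 794, 1013 and 378 CPM in ST14low replicates 1 to 4. Csf1r, the receptor for macrophage colony-stimulating factor, held most of the ST14high sums in replicates 2 to 4, and without it the sums were 221, 73.8, 7.72 and 148 CPM in ST14high and 226, 581, 700.5 and 179 CPM in ST14low. Lymphocyte markers were at 0.638 to 14.9 CPM in ST14high and 8.91 to 33.3 CPM in ST14low, and hepatocyte markers at 4898 to 12444 CPM in ST14high libraries and 7840 to 14320 CPM in ST14low libraries. Log2 fold changes were below 0 for 9 of 9 hepatocyte, 6 of 7 tested lymphocyte and 10 of 11 endothelial markers. Their medians were -0.45, -1.73 and -0.51, where the median over all genes tested was 0.0023, and 0 passed edgeR's adjusted threshold, which 0% of all genes passed. DESeq2 called 5 markers of stellate cells, fibroblasts and muscle, 5 mesothelial and 2 acinar markers higher in ST14high. It called 1 lymphocyte marker lower and 0 endothelial, macrophage or hepatocyte markers, where it called 1.72% of all genes and called 0.103% lower. Without ST14high replicate 1 the log2 fold change of Bdkrb2 was -0.85 and without ST14low replicate 2 it was -0.84.

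**Figure D2:**
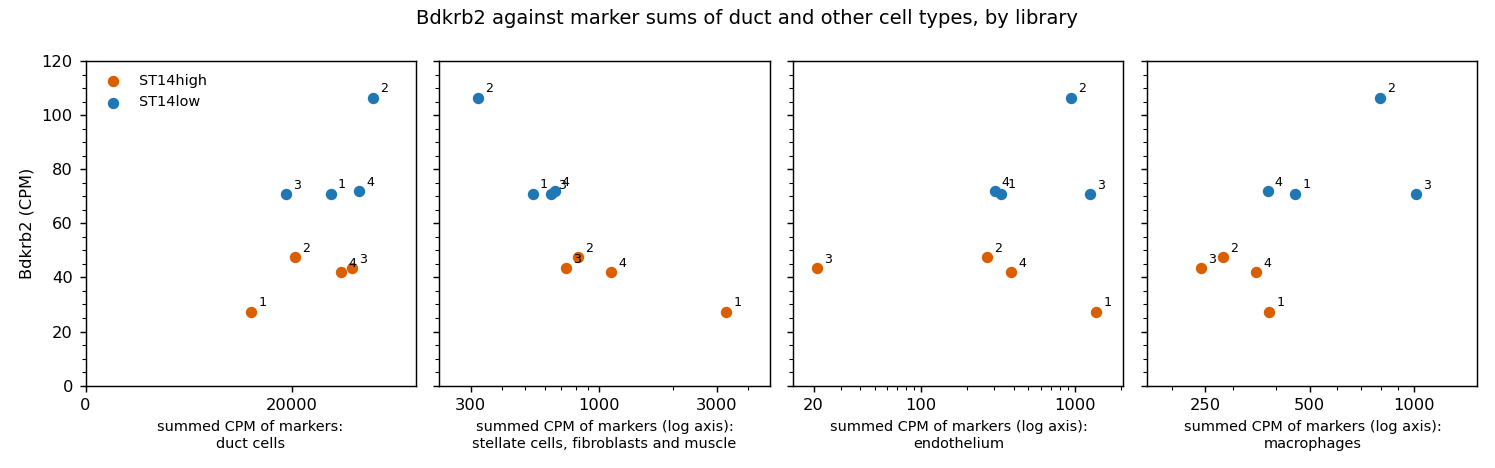
Bdkrb2 (CPM, vertical axis from 0) against the summed CPM of markers for duct cells (linear axis), stellate cells, fibroblasts and muscle, endothelium and macrophages (log axes), with each ST14high (orange) and ST14low (blue) library as a numbered point. The duct sum is mostly Spp1, and the macrophage sum of ST14high replicates 2 to 4 mostly Csf1r. All ST14high points lie at or below 47.4 CPM of Bdkrb2 and all ST14low points at or above 70.8 CPM.

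The bases before the start of Bdkrb2 are shown beside those of P2ry2, since both encode receptors of the same pathway and of the pair only Bdkrb2 had populations that did not overlap. Capitals mark CG dinucleotides in the 250 bases before each start, taken from RefSeq on build GRCm38.p6 (not the build of the count tables), 5′ to 3′ on the strand of the gene, at chr12:105562922-105563171 (plus strand) for Bdkrb2 and chr7:101012054-101012303 (minus strand) for P2ry2, the upstream one of its 2 starts.
Bdkrb2: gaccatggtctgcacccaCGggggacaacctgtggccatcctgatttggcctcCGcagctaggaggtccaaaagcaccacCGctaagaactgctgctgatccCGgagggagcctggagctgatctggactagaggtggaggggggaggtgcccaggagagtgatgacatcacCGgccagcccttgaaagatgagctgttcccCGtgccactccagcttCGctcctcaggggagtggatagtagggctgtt
P2ry2: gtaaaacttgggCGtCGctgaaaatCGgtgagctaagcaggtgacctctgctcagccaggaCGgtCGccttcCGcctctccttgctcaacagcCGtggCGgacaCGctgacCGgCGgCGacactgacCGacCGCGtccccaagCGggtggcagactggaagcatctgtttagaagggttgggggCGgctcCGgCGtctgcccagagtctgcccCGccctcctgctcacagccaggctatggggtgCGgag
The Bdkrb2 window held 7 CG dinucleotides and the P2ry2 window 21, where the median over 32851 RefSeq windows was 6. Of 5 short motifs searched on both strands, given next, the Bdkrb2 window held none. GGGCGG, which itself holds a CG dinucleotide, was found in windows of 4 of the 7 members with an entry (Itpr2, Itpr3, P2ry1 and P2ry2) and in 32.7% of all windows. TATAAA was found in 1 member, P2ry14, and in 12.4% of all windows. CCAAT was found in 2 members, Itpr2 and P2ry14, and in 33.8% of all windows. TGANTCA was found in 1 member, P2ry14, and in 6.75% of all windows. TGACGTCA was found in 0 members and in 1.55% of all windows. The 7 members had 11 windows, several of them of P2ry14 and 2 of P2ry2. A member was counted if any of its windows held the motif, whereas the percentages are per window, so the 2 are not directly comparable. No entry was matched for Bdkrb1, P2ry6 and Itpr1.

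Among the P2Y receptors, P2ry2 was the main transcript in both populations. It encodes a receptor for ATP and UTP and lies at positions 108145085 to 108160505 of chromosome 7 (minus strand, mm9). P2ry2 was at 81.2, 88.4, 68.7 and 77.0 CPM in ST14high replicates 1 to 4, against 85.2, 91.5, 60.8 and 80.1 CPM in ST14low replicates 1 to 4. The populations overlapped throughout, and the log2 fold change was -0.013 (SE 0.15, 95% interval from -0.35 to 0.33; edgeR adjusted p = 0.984). P2ry2 made up 77.2% to 90.5% of the summed RPKM of the 4 P2Y genes in ST14high and 74.0% to 88.7% in ST14low.

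P2ry1, the gene of a receptor for ADP (chromosome 3, 60806716 to 60812901, plus strand), was at a lower level. P2ry1 was at 9.16, 11.9, 12 and 9.50 CPM in ST14high replicates 1 to 4, against 11.6, 12.6, 23.0 and 18.5 CPM in ST14low replicates 1 to 4. ST14low replicates 3 and 4 were above all ST14high libraries, whereas ST14low replicate 1 was below ST14high replicates 2 and 3, so the populations overlapped. P2ry1 had a log2 fold change of -0.62 (SE 0.26, 95% interval from -1.20 to -0.04), with an unadjusted p of 0.0388 and an adjusted p of 0.503 in edgeR and an exact permutation p of 0.0857. It was -0.42 without ST14low replicate 3, the library with the fewest counts.

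P2ry6 encodes a receptor for UDP and is known from macrophages and other cells (chromosome 7, 108086147 to 108112880, minus strand, ending 32205 bases before P2ry2). Its 320 reads gave 9.03, 1.39, 0.472 and 0.534 CPM in ST14high replicates 1 to 4, against 1.11, 1.54, 2.31 and 1.03 CPM in ST14low replicates 1 to 4. ST14high replicate 1 held the highest level and ST14high replicates 3 and 4 the lowest. The log2 fold change of 0.94 (SE 0.94, edgeR adjusted p = 0.755) turned to -0.89 (adjusted p = 0.691) without ST14high replicate 1, to -0.20 with the replicate number as a block and to -0.26 in limma's voom, so no direction can be given for P2ry6. Macrophage markers in ST14high replicate 1, at 382 CPM, lay below those of 3 ST14low libraries, while its markers of acinar cells, of stellate cells, fibroblasts and muscle, of endothelium and of mesothelium were the highest of the 8 libraries. Their part in the P2ry6 level was not tested.

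P2ry14, the gene of a receptor for UDP-glucose and other UDP-sugars (chromosome 3, 58918546 to 58934546, minus strand), was near the limit of detection and fell under the low-count filter. It was at 1.58, 0.597, 0.378 and 0 CPM in ST14high replicates 1 to 4, against 0.171, 0.205, 0.154 and 0.438 CPM in ST14low replicates 1 to 4. These rested on 25, 15, 16 and 0 reads in ST14high and on 4, 4, 1 and 14 reads in ST14low, and the 0 reads of ST14high replicate 4 allow up to 0.089 CPM at 3 counts, by counting error only. The populations overlapped (exact permutation p = 0.314). The second row of P2ry14 covers the same span and held 70 reads against 79 on the row kept. These rows differed only in ST14high replicate 2, at 6 reads against 15 on the row kept. Both lie inside Med12l (58810899 to 59122334, plus strand), at 22.5 ± 3.19 CPM in ST14high, against 16.1 ± 2.37 CPM in ST14low (SD, n = 4 each). Whether counting used strand is not given in the sources used here, so reads of P2ry14 and of Med12l transcripts cannot be told apart.

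P2rx4, an ATP-gated cation channel with high calcium permeability (chromosome 5, 123157565 to 123179051, plus strand), overlapped between the populations. P2rx4 was at 56.6, 64.3, 83.0 and 73.0 CPM in ST14high replicates 1 to 4, against 69.5, 82.4, 68.5 and 64.8 CPM in ST14low replicates 1 to 4. Neither population lay above the other, the log2 fold change was -0.042 (SE 0.15, 95% interval from -0.38 to 0.30; edgeR adjusted p = 0.945), and its sign changed when ST14high replicate 1 or ST14low replicate 2 was left out. P2rx4, which macrophages also express, was at 83.0 CPM in ST14high replicate 3, where the macrophage markers other than Csf1r summed to 7.72 CPM. In ST14low replicates 2 and 3, where they summed to 581 and 700.5 CPM, P2rx4 was at 82.4 and 68.5 CPM. The part of macrophage RNA in the P2rx4 level was not tested. In RPKM P2rx4 made up 49.9% to 66.01% of the nucleotide receptor members in ST14high and 55.4% to 60.7% in ST14low.

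**Figure D3:**
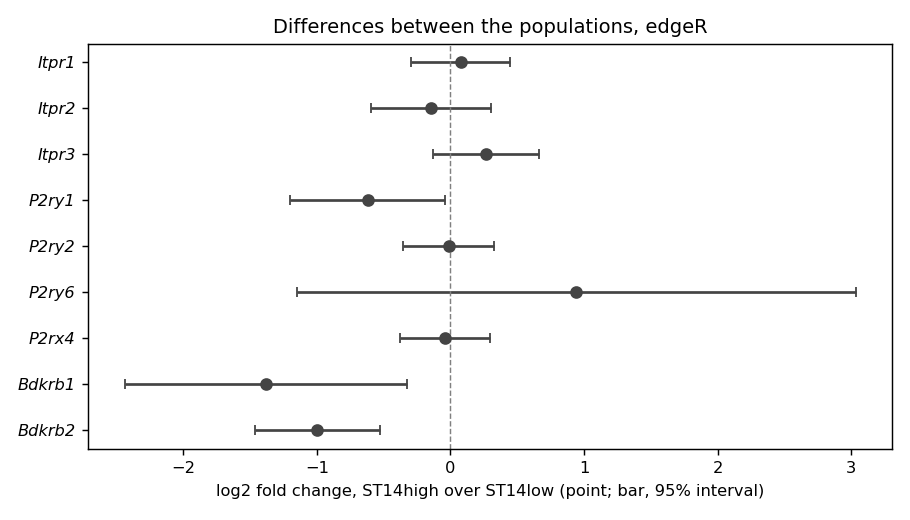
Log2 fold change of ST14high over ST14low for the 9 members tested (points, edgeR) with 95% intervals (bars) on the horizontal axis. The intervals of P2ry1, Bdkrb1 and Bdkrb2 lie below 0 before adjustment over all genes, and that of P2ry6 runs from -1.15 to 3.04.

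The IP3 receptor genes were expressed together in both populations. Itpr1 (chromosome 6, 108163089 to 108501108, plus strand), the widely expressed type, was at 200, 202, 180.2 and 189 CPM in ST14high replicates 1 to 4, against 221, 129, 205 and 178 CPM in ST14low replicates 1 to 4. Every ST14high value lay within the range of ST14low, which was widened by ST14low replicate 2. Its log2 fold change was 0.076 (SE 0.17, 95% interval from -0.30 to 0.45; edgeR adjusted p = 0.902), and -0.073 without ST14low replicate 2.

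Itpr2 (chromosome 6, 146060001 to 146450434, minus strand), the main type in hepatocytes, was at 107, 98.3, 110.3 and 88.6 CPM in ST14high replicates 1 to 4, against 129, 67.9, 133 and 116 CPM in ST14low replicates 1 to 4. ST14low replicate 2 was again the lowest library and the other ST14low libraries were above all ST14high libraries. For Itpr2 the log2 fold change was -0.15 (SE 0.20, 95% interval from -0.60 to 0.31; edgeR adjusted p = 0.827) with all libraries, and -0.34 without ST14low replicate 2. The other Itpr2 row covers the same span with 20600 reads against 20763, so its reads are nearly the same.

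Itpr3 (chromosome 17, 27194248 to 27259168, plus strand), the apical type of duct cells and also abundant in pancreatic acinar cells, was at 278, 175, 171 and 165 CPM in ST14high replicates 1 to 4, against 177, 154, 164 and 162 CPM in ST14low replicates 1 to 4. ST14high replicate 1 stood above the other 7 libraries, which lay between 154 and 177 CPM. The log2 fold change was 0.26 (SE 0.18, 95% interval from -0.13 to 0.66; edgeR adjusted p = 0.649) with all libraries and 0.054 without ST14high replicate 1, the library in which acinar markers summed to 9349 CPM. The part of acinar RNA in that value was not tested. Over ST14high replicates 2 to 4 the mean was 170.5 ± 4.80 CPM (SD, n = 3), against 164 ± 9.48 CPM in ST14low (SD, n = 4).

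Summed over the IP3 receptor genes, RPKM was 69.2 ± 5.41 in ST14high and 66.5 ± 11.9 in ST14low (SD, n = 4 each), with the lowest sum, 49.3, in ST14low replicate 2. Itpr3 held 48.3% of that sum in ST14high replicate 1 and 37.6% to 38.1% in ST14high replicates 2 to 4, and 33.1% to 44.6% in ST14low. Itpr1 held 31.4% to 39.4% in ST14high and 33.8% to 38.5% in ST14low, and Itpr2 20.4% to 26.6% in ST14high and 21.6% to 29.6% in ST14low. Itpr2 thus had the smallest share in all 8 libraries, while Itpr1 and Itpr3 changed places between libraries.

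**Figure D4:**
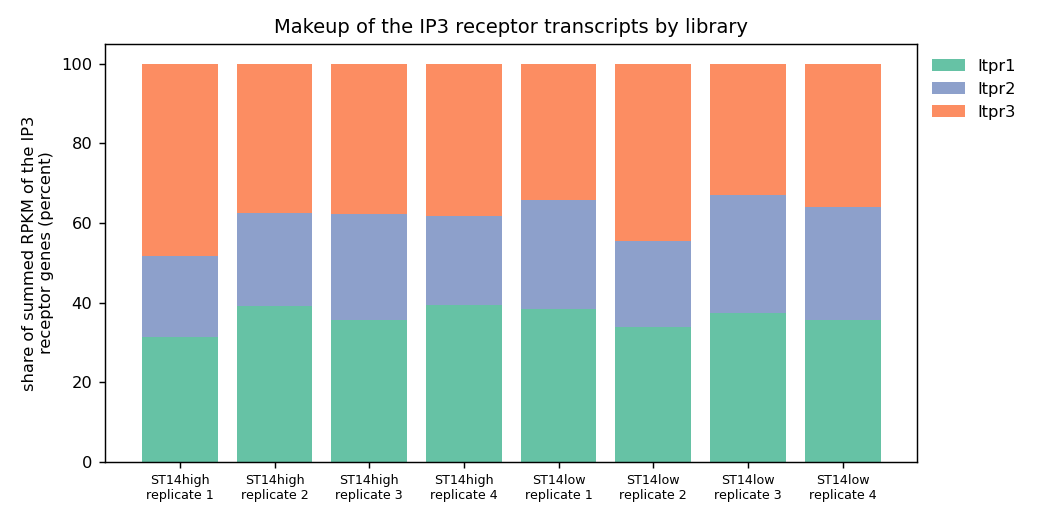
Share of each IP3 receptor gene in the summed deposited RPKM of Itpr1, Itpr2 and Itpr3 (percent, stacked bars from 0) in each ST14high and ST14low library. Itpr2 had the smallest share in each library, and the Itpr3 share was largest in ST14high replicate 1, at 48.3%, and next in ST14low replicate 2, at 44.6%.

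Ordered by mean deposited RPKM, the members fell into 6 transcripts at high level and 4 at low level. In ST14high the order was P2rx4 (44.2 RPKM), Itpr3 (28.1 RPKM), P2ry2 (27.1 RPKM), Bdkrb2 (25.6 RPKM), Itpr1 (25.1 RPKM) and Itpr2 (16.0 RPKM), followed by P2ry1 (2.78 RPKM), P2ry6 (1.48 RPKM), Bdkrb1 (1.28 RPKM) and P2ry14 (0.355 RPKM). The ranges over the 4 libraries overlapped between neighbours from P2rx4 to Itpr1 and from P2ry1 to Bdkrb1, and did not overlap between Itpr1 and Itpr2, Itpr2 and P2ry1, or Bdkrb1 and P2ry14. This order of means rests in part on ST14high replicate 1, where Itpr3 was at 36.8, Bdkrb2 at 15.9 and P2ry6 at 4.56 RPKM. By median over the 4 ST14high libraries, Bdkrb2 (27.45 RPKM) and P2ry2 (26.48 RPKM) came before Itpr3 (25.57 RPKM) and Itpr1 (24.66 RPKM). P2ry6, with a median of 0.55 RPKM, lay above Bdkrb1 (median 1.3 RPKM) in 1 of 4 ST14high libraries. In ST14low Bdkrb2 came first (51.4 RPKM), in front of P2rx4 (46.2 RPKM), whose range overlapped with it although Bdkrb2 was the higher of the pair in 4 of 4 libraries. P2ry2 (27.8 RPKM), Itpr1 (24.3 RPKM) and Itpr3 (24.1 RPKM) overlapped as neighbours, and Itpr2 (18.1 RPKM), P2ry1 (4.37 RPKM), Bdkrb1 (3.41 RPKM), P2ry6 (0.838 RPKM) and P2ry14 (0.143 RPKM) followed. Of these, only P2ry1 and Bdkrb1 overlapped as neighbours.

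**Figure D5:**
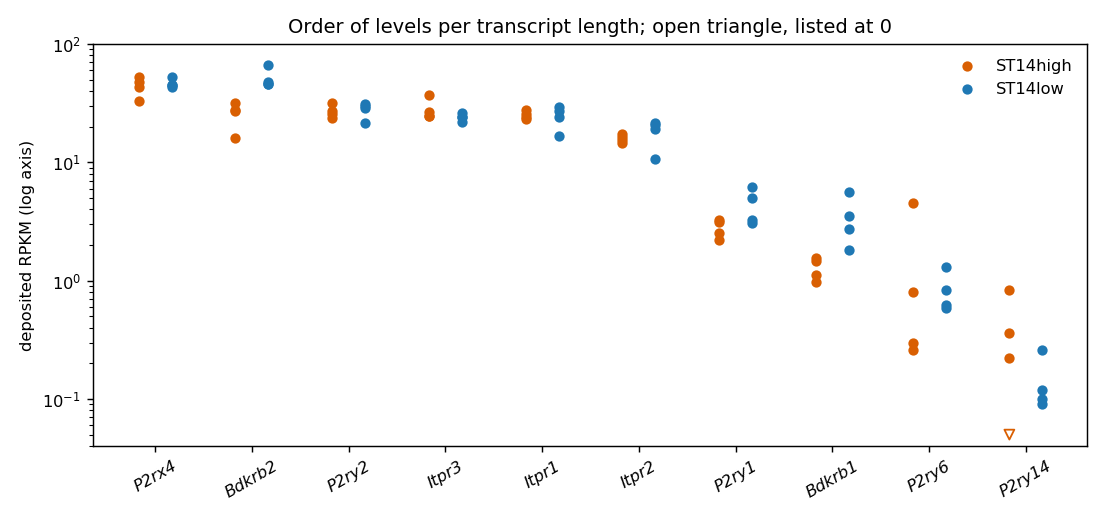
Deposited RPKM (log axis) of each member in the ST14high (orange) and ST14low (blue) libraries, ordered by the mean over all 8 libraries, with an open triangle for a library listed at 0. The 6 genes from P2rx4 to Itpr2 lie above 10 RPKM in all 8 libraries, and P2ry14 lies below 1 RPKM in all 8.

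The steps around these receptors showed no gene past edgeR's adjusted threshold in either population. Among ectonucleotidases and nucleotide release genes, 16 were tested, with 9 above and 7 below 0 and a median log2 fold change of 0.08, where the median over all genes tested was 0.0023. Before adjustment 3 of the 16, all higher in ST14high, had an edgeR p under 0.05, where 9.56% of all genes did. Here DESeq2 called 1, where it called 1.72% of all genes. That gene, Enpp2, encodes autotaxin, an enzyme that forms lysophosphatidic acid. Enpp2 was at 84.9, 47.6, 7.96 and 47.1 CPM in ST14high replicates 1 to 4, against 9.38, 3.59, 10.3 and 5.10 CPM in ST14low replicates 1 to 4 (DESeq2 adjusted p = 0.000226, edgeR adjusted p = 0.211), and ST14high replicate 3 overlapped with ST14low. The members of highest level, the intracellular Entpd4 and the secreted or endoplasmic Entpd5, had log2 fold changes of -0.07 and 0.13.

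Of 25 tested genes of calcium store handling and IP3 receptor partners, 12 were above and 13 below 0, with a median of -0.010. Before adjustment 2 of the 25, both higher in ST14high, had an edgeR p under 0.05, where 9.56% of all genes did. DESeq2 called 1 of the 25, where it called 1.72% of all genes. That gene, Mrvi1, encodes a substrate of cGMP-dependent kinase that binds IP3 receptors in smooth muscle. Mrvi1 was at 30.4, 5.09, 2.10 and 21.3 CPM in ST14high replicates 1 to 4, against 1.49, 0.564, 0.772 and 1.00 CPM in ST14low replicates 1 to 4 (log2 fold change 3.91, DESeq2 adjusted p = 3.32e-05, edgeR adjusted p = 0.192). Markers of stellate cells, fibroblasts and muscle were also higher in each ST14high library than in any ST14low library, and their part in the values of Mrvi1 and Enpp2 was not tested. Tmbim6, an endoplasmic reticulum protein that limits cell death, was at 1121 ± 106 CPM in ST14high, against 1238 ± 149 CPM in ST14low, and calreticulin (Calr), a calcium buffer of that store, at 662 ± 114 CPM in ST14high libraries and 639.6 ± 167 CPM in ST14low libraries (SD, n = 4 each). Calr was at 817 CPM in ST14high replicate 1 and at 566, 677 and 590 CPM in ST14high replicates 2 to 4.

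Of the kinin formation and breakdown genes 15 were tested, 7 above and 8 below 0, with a median of -0.07 and 0 called by edgeR or DESeq2. Serping1, the inhibitor of plasma kallikrein and complement C1, was at 327 ± 97.7 CPM in ST14high, against 215 ± 31.1 CPM in ST14low (unadjusted p = 0.0156, edgeR adjusted p = 0.399, n = 4 each), and Cpd, a carboxypeptidase that removes terminal arginine, at 458 ± 97.4 CPM in ST14high libraries and 537 ± 149 CPM in ST14low libraries. Serping1 was highest in ST14high replicate 1, at 466 CPM, and was at 253, 266 and 325 CPM in ST14high replicates 2 to 4. Of 23 genes of Gq proteins, phospholipase C and inositol phosphate enzymes, 16 were above and 7 below 0, with a median of 0.11, and before adjustment 2 higher genes and 1 lower gene had a p under 0.05. The higher ones, chosen here after their values were seen, were Plcd1, a phospholipase C of the delta class (log2 fold change 0.67, unadjusted p = 0.00765, edgeR adjusted p = 0.330), and Plcb3, a phospholipase C activated by Gq (log2 fold change 0.39, unadjusted p = 0.0164, edgeR adjusted p = 0.402), each without overlap between the populations. The lower one was Itpkb. Over all genes tested, 9.56% had an unadjusted edgeR p under 0.05, and 4.09% lay higher in ST14high without overlap. Plce1, a phospholipase C regulated by Ras, was at 205.5 ± 19.5 CPM in ST14high, against 187 ± 35.5 CPM in ST14low, and Itpkb, which phosphorylates IP3, at 117 ± 6.59 CPM in ST14high libraries and 143 ± 17.1 CPM in ST14low libraries (unadjusted p = 0.0438, edgeR adjusted p = 0.510, n = 4 each).

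Other receptors of these families were mostly low. Of 14 further nucleotide and adenosine receptors 10 were tested, 4 above and 6 below 0, with a median of -0.08, and 0 had an unadjusted edgeR p under 0.05. Adora1, an adenosine receptor coupled to Gi, was the exception in level, at 184 ± 25.95 CPM in ST14high, against 196 ± 26.6 CPM in ST14low, and P2rx6, next in that list, was at 8.56 ± 2.21 CPM in ST14high libraries and 7.37 ± 1.18 CPM in ST14low libraries (SD, n = 4 each). Of 34 other Gq-coupled receptors 15 were tested, 12 above and 3 below 0, with a median of 0.20. Before adjustment 3 of these, all higher in ST14high, had an edgeR p under 0.05, where 9.56% of all genes did. Among them Ednra and S1pr3 were highest in ST14high replicate 1, at 6.1 and 15.1 CPM, whereas Lpar6 was there at 62.8 CPM, its lowest ST14high value. F2rl1, the protease-activated receptor PAR2, averaged 145 ± 17.6 CPM over the ST14high libraries and 151 ± 20.9 CPM over the ST14low libraries, and Agtr1a, an angiotensin receptor, was at 87.4 ± 16.5 CPM in ST14high libraries and 87.5 ± 12.7 CPM in ST14low libraries. Agtr1b, Lpar3, Grpr, Ntsr1 and Tacr1 had no reads.

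On the output side, of 8 tested genes for calcium-activated channels and apical secretion 5 were above and 3 below 0, with a median of 0.05. Of these 0 had an unadjusted edgeR p under 0.05. Ano1, the calcium-activated chloride channel, was at 329 ± 101 CPM in ST14high, against 292 ± 60.8 CPM in ST14low, and Ano6, a calcium-activated scramblase and channel, at 383 ± 84.6 CPM in ST14high libraries and 349.6 ± 47.4 CPM in ST14low libraries (SD, n = 4 each). Both were highest in ST14high replicate 1, at 477.5 CPM for Ano1 and 508 CPM for Ano6. In ST14high replicates 2 to 4 Ano1 was at 286, 301 and 251 CPM and Ano6 at 320, 354 and 350 CPM. Of 21 genes of plasma membrane and mitochondrial calcium transport 15 were above and 6 below 0, with a median of 0.21. Before adjustment 3 of the 21, all higher in ST14high, had an edgeR p under 0.05, where 9.56% of all genes did. Pkd2 (polycystin-2) was at 362 ± 31.7 CPM in ST14high, against 311 ± 66.2 CPM in ST14low, and Trpm7, a cation channel with a kinase domain, at 194.5 ± 8.34 CPM in ST14high libraries and 139.9 ± 59.5 CPM in ST14low libraries.

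The gene whose log2 CPM over the 8 libraries was most like that of Bdkrb2, among tested genes with a mean of at least 5 CPM, was Gnb5, a G protein beta subunit, with Pearson's r of 0.977 (0.958 without ST14high replicate 1), followed by 1110067D22Rik with r of 0.971. Gnb5 was at 21.6 ± 2.62 CPM in ST14high, against 29.4 ± 2.67 CPM in ST14low (SD, n = 4 each), without overlap. For Bdkrb1 the nearest genes were Tnfaip8l1 (r of 0.960) and Nags (r of 0.955). Itpr1 was most like Phlpp2 (r of 0.982), Itpr2 most like Plekhm3 (r of 0.983), P2rx4 most like Flot2 (r of 0.989), P2ry1 most like Fundc1 (r of 0.959) and P2ry2 most like 9330129D05Rik (r of 0.932). P2ry6 was nearest to Plcg2, a phospholipase C of blood cells, with r of 0.992, and Itpr3 to Cul7 and Creb3l2, with r of 0.990 and 0.989, which were 0.931 and 0.801 without ST14high replicate 1. These values describe 8 libraries that share depth and cell makeup, and were picked as the highest among all genes compared. The values without ST14high replicate 1 used another small constant added to CPM before the logarithm, so part of a change may come from that.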

How the data were processed

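RNA sequencing of 8 libraries, 4 of ST14high and 4 of ST14low duct cells, was used, grouped by the labels. Per the labels' protocols, cells were sorted into TRIzol and the Illumina TruSeq kit was used. The tools CASAVA 1.8.2 and Bowtie 1.0.0 and build mm9 are named, per the submitters' processing notes. Which program counted the reads, with which annotation and strand setting, is not stated. The authors, per the file headers, deposited raw read counts and RPKM values for 26005 RefSeq transcript rows. RPKM, scaled by length and library size by the authors, served only to compare levels between genes. For each of 20377 symbols the row with the largest summed count was kept.

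The main test on counts was the quasi-likelihood test of edgeR 4.0.16 under R 4.3.3 (TMM factors, filterByExpr, population as the only term, two-sided), with p-values adjusted by Benjamini-Hochberg over 13749 genes and a threshold of 0.05. The procedure was tested on simulated data. Each log2 fold change is that of ST14high over ST14low and carries an SE and a 95% interval. Single CPM values were tested by exact permutation of the difference in means over 70 arrangements. DESeq2 1.42.0, limma 3.58.1 (voom with quality weights), other scalings and filters, the replicate number as a block, the longest span per gene and leaving out each library served as alternatives; DESeq2 without each library or with the block was added after seeing the data, as were marker sums without the gene of highest level. Python 3.11.15 with scipy 1.17.1, pandas 2.3.3, numpy 2.4.6 and matplotlib 3.10.9 served for tables, exact tests and plots.

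The members, the gene lists and the tests were chosen with earlier results of these data known, so no p is adjusted over a list. Named beside the members were, per pathway list, the 2 tested genes of highest mean CPM and those called by edgeR or DESeq2, the 2 genes most correlated with each tested member, and genes overlapping a member.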

Additional observations from a re-analysis of the deposited data

Results flagged for a closer look

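In groups of 4 libraries, chance marks a highest or lowest library as far from the others in about 1 of 20 groups, and 20 groups of members and populations were examined. Itpr3 was at 278 CPM in ST14high replicate 1, where the other ST14high libraries lay between 165 and 175 CPM. P2ry6 was at 9.03 CPM in ST14high replicate 1, where the other ST14high libraries lay between 0.472 and 1.39 CPM. Bdkrb2 was at 106 CPM in ST14low replicate 2, where the other ST14low libraries lay between 70.8 and 71.9 CPM.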

How the results depend on the processing

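Over all genes edgeR called 0, and the scalings, filters, row choice, limma's voom and each library left out also gave 0; the replicate block gave 2 genes and 0 members. DESeq2 called 234 genes and 1 member, Bdkrb2; with the replicate block it called 366 genes and 1 member, and in each fit without 1 library it called 1 member, Bdkrb2, and 283, 262, 421 and 216 genes without ST14high replicates 1 to 4 and 161, 177, 319 and 163 genes without ST14low replicates 1 to 4. Same-numbered libraries did not deviate together (correlations of -0.125 to 0.0522, none best with its own number). The labels do not say whether same-numbered libraries belong together. These correlations, taken over libraries that also differ in markers of other cells, cannot decide it. Bdkrb2, Bdkrb1, P2ry1, Itpr2 and Itpr3 kept their direction in every fit made. P2ry6 had log2 fold changes of -0.26 in voom, -0.20 with the replicate block and -0.23 with the block in DESeq2, and -0.89 to 1.29 (DESeq2 -0.90 to 1.30) without each library. Without each library P2ry2 lay between -0.12 and 0.046 (DESeq2 -0.13 to 0.055, with 0.038 without ST14high replicate 3 and 0.010 without ST14low replicate 1), P2rx4 between -0.16 and 0.041 (DESeq2 -0.15 to 0.032, with 0.025 without ST14high replicate 1) and Itpr1 between -0.073 and 0.18 (DESeq2 -0.063 to 0.17); in voom P2ry2 was at 0.082 and P2rx4 at 0.0097. The cause of these reversals was not tested. P2ry6 and Bdkrb1 fell under the filter of 5 CPM in 4 libraries, and DESeq2 gave P2ry6 no p with all libraries. Depth limits P2ry14, P2ry6 and Bdkrb1, with 79, 320 and 523 reads in all.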

Other observations

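Some genes of the kinin and nucleotide lists had values of note, chosen after they were seen. Klk1, tissue kallikrein, which forms kinins, was at 76.4, 13.5, 0 and 0 CPM in ST14high replicates 1 to 4, against 1.07, 0.103, 0.154 and 0.063 CPM in ST14low replicates 1 to 4. Acinar marker sums were also highest in ST14high replicates 1 and 2, at 9349 and 1331 CPM, and their part in the Klk1 level was not tested. P2ry13, a receptor for ADP in blood cells, was at 1.89, 0.398, 0 and 0.297 CPM in ST14high, against 2.09, 4.15, 5.86 and 0.750 CPM in ST14low (edgeR adjusted p = 0.563). Macrophage markers were also lower in ST14high (11 of 12 with a log2 fold change below 0), and their part in the P2ry13 level was not tested. P2rx1, an ATP-gated channel of smooth muscle and platelets, was at 2.91, 0.716, 0 and 1.72 CPM in ST14high and at no more than 0.128 CPM in each ST14low library, on 130 reads in all.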
